A study of Rattus norvegicus with 4 samples.

Results

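Unconventional myosins were followed in 4 RNA sequencing libraries of the rat kidney cell line NRK-52E, 2 titled lv_Mettl3 and 2 titled lv_nc. The members are the genes of a fixed set of 9 symbols, Myo1c, Myo1d, Myo1e, Myo5a, Myo5b, Myo6, Myo7a, Myo9b and Myo10, and 8 of them were found among the 17768 genes of the table; Myo5b is not analysed here. The set was chosen by measured values of the same contrast: Myo7a entered it as a gene that DESeq2 called lower in lv_Mettl3, and its relatives were set beside it. The contrast is therefore given for the members as a description, and nothing is supported with it.

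Unconventional myosins are motors that use ATP to move along or pull on actin filaments, and unlike the myosin II of muscle and stress fibres they do not assemble into thick filaments. Class I myosins tether membranes to actin, class V and class VI motors carry or anchor vesicles, class VII and class X motors work in the actin protrusions of the cell surface, and class IX motors carry a domain that switches off small GTPases. In kidney tubule epithelium such motors serve the brush border, endocytosis and the recycling of membrane proteins.

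The lv_Mettl3 line was made with a lentivirus (pLVX-IRES-Puro backbone) that carried murine Mettl3 cDNA. Mettl3 is the catalytic subunit of the enzyme that writes N6-methyladenosine into RNA. The virus was harvested 48 h after transfection, the cells were selected with puromycin at 0.5 mg/ml and then kept at 0.25 mg/ml in medium with 10% serum, and the labels do not spell out what nc stands for. All 4 samples carry the treatment label untreated, and nothing says whether the replicates of a group are separate cultures or separate transductions, so p-values and SDs here cover only how far these libraries vary, a spread that may be technical.

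The libraries held 15068898 and 15483756 gene reads in lv_Mettl3 and 16133328 and 16622255 in lv_nc. The titled gene, Mettl3, had 757 and 700 normalized read counts in the libraries labelled lv_Mettl3, against 719 and 767 in lv_nc. Its log2 difference was -0.03 (SE 0.11) with a limma adjusted p of 0.931 and the groups overlapped. Higher Mettl3 was thus not seen in the libraries labelled lv_Mettl3. The cDNA was murine and the counted gene is that of the rat, and whether murine reads were counted was not tested. The labels are therefore unchecked by this gene, and every direction given here is that of the libraries labelled lv_Mettl3. The labelled identity of the line, proximal tubule epithelium, was checked against 20 markers, of which 13 were found. Ggt1, the brush border gamma-glutamyltransferase, averaged 3526 ± 328 in lv_Mettl3 and 2471 ± 83.6 in lv_nc (SD, n = 2 each). The scaffold protein gene Pdzk1 averaged 169 ± 0.0932 in lv_Mettl3 and 165 ± 5.28 in lv_nc, and the bicarbonate cotransporter Slc4a4 averaged 138 ± 15.3 in lv_Mettl3 and 164 ± 28.0 in lv_nc. Of the 13 found, 5 averaged under 5 counts, among them the endocytic receptor Lrp2, with at most 1.95 in any library, and the water channel Aqp1, with at most 6.46.

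**Figure D1:**
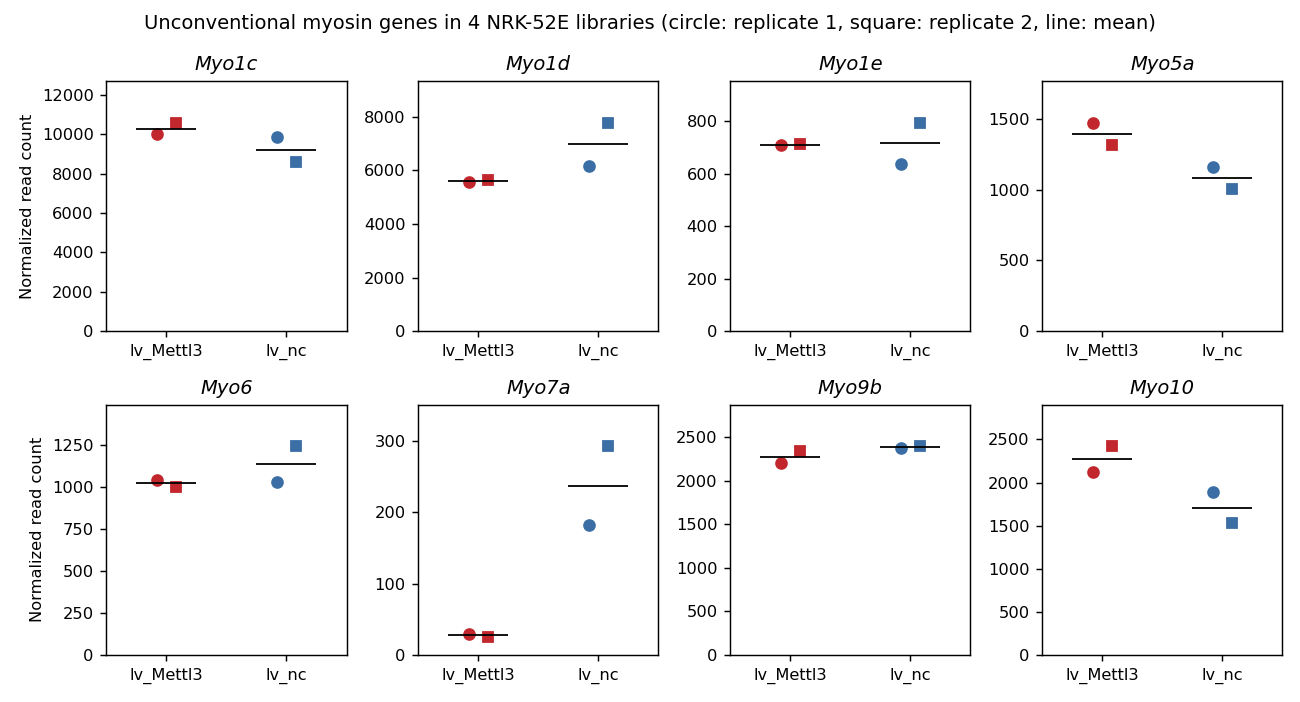
Normalized read count of each of the 8 myosins found, by group, on linear axes that start at 0 and differ between panels; circles are replicate 1, squares replicate 2 and lines group means, with lv_Mettl3 left of lv_nc. Myo7a lies at 29.7 and 25.8 in lv_Mettl3 and at 182 and 293 in lv_nc, and the group means of the other 7 differ by at most 32.9%.

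Promoter windows are shown for the 3 members with the largest differences between the groups, Myo7a (lower in lv_Mettl3), Myo10 and Myo5a (higher in lv_Mettl3). They are RefSeq sequences of the rat build GRCr8, which need not be the build of the deposited table, and run from 250 bases before to 50 bases after the annotated start, written 5′ to 3′ on the strand of the gene with every CG dinucleotide in capitals. The Myo7a window is chr1:161818528-161818827 on the minus strand, that of Myo10 is chr2:77831282-77831581 on the plus strand, and that of Myo5a is chr8:84692699-84692998 on the plus strand.
Myo7a: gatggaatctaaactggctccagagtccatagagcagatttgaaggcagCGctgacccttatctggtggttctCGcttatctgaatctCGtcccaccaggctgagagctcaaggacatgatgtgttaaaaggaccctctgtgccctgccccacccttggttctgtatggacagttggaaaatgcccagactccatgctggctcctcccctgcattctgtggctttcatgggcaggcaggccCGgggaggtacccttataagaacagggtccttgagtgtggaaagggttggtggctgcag
Myo10: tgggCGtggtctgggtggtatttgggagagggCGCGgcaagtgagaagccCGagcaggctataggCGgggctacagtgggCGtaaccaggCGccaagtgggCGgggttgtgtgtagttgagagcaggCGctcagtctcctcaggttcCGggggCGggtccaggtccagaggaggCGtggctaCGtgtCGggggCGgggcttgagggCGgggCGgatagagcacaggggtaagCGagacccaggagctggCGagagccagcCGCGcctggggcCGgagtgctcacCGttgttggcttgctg
Myo5a: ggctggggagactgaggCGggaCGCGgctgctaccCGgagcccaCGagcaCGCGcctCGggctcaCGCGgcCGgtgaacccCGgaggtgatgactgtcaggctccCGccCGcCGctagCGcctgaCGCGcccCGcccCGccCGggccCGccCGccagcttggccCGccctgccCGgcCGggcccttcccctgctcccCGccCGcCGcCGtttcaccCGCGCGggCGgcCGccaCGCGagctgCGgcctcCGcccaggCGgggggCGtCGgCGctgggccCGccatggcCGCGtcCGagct

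The Myo7a window held 4 CG dinucleotides, that of Myo10 held 23 and that of Myo5a held 47, against a median of 7 over all 33469 rat promoter windows. Windows matched 7 of the 8 members, with none for Myo1d, and Myo1c has 2 annotated starts. The remaining counts were 10 for Myo1e, 26 for Myo6, 33 for Myo9b, and 1 and 27 at the starts of Myo1c. The GC box letters GGGCGG, searched on both strands, were found in 33.1% of all windows and were present 5 times in the window of Myo10, 8 times in that of Myo5a, 5 times in that of Myo6 and 4 times in that of Myo9b. The second start of Myo1c had 1 match, and the windows of Myo7a, Myo1e and the first start of Myo1c had 0. The letters TATAA, also searched on both strands, occur in 26.2% of all windows, and among the members only the Myo7a window held them, as 2 overlapping matches that begin at window bases 255 and 256, just downstream of the annotated start. The letters CCAAT occur in 37.5% of windows, and among the members they were found in those of Myo1e and of the first start of Myo1c. These matches describe letters in a window and show no binding. Whether base composition bears on the level of a gene or on its group difference was not tested.

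Myo7a, whose motor anchors the tip links of inner ear stereocilia and moves pigment granules in the retina, and whose human gene is mutated in Usher syndrome, is the member with the largest difference. In the files its identifier is ENSRNOG00000013641, at chromosome 1, 163001875 to 163071508 on the minus strand of a build that is not given in the sources used here, with a length of 6807 bases. It had 29.7 and 25.8 normalized read counts in lv_Mettl3, against 182 and 293 in lv_nc. Both lv_Mettl3 libraries lay below both lv_nc libraries, and the lv_nc libraries were themselves 1.61-fold apart, against 1.15-fold in lv_Mettl3.

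The group means of Myo7a were 27.8 ± 2.72 in lv_Mettl3 and 237 ± 78.4 in lv_nc (SD, n = 2 each), which is 8.54-fold lower in lv_Mettl3. Behind these values stood 28 and 25 reads in lv_Mettl3 and 186 and 317 in lv_nc. The exact Poisson 95% intervals, which cover counting error only, were 19.7 to 42.9 and 16.7 to 38.1 normalized counts in lv_Mettl3 and 157 to 210 and 261 to 327 in lv_nc, and the intervals of the 2 lv_nc libraries did not meet each other. In a bulk sample, fewer cells that express the gene and less RNA per cell cannot be told apart.

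On the log2(value + 1) scale used with limma the Myo7a difference was -3.01 (SE 0.32, 95% interval -3.83 to -2.20). Its adjusted p was 0.165 with limma, 4.57e-11 with DESeq2 on the recovered reads and 0.0676 with the edgeR quasi-likelihood test, and the authors' deposited table gives the same 4.57e-11. Of the 8 members, DESeq2 called 1 at an adjusted p under 0.05, beside 2.52% of the 12601 genes it tested, 1.45% being higher and 1.07% lower in lv_Mettl3. Limma called 0 members and 0.0183% of 16391 genes, which is 3 genes, while 908 genes were higher and 808 lower at an unadjusted p under 0.05. The edgeR test called 0 members and 0.0381% of 13113 genes. At an unadjusted p under 0.05, limma and edgeR each had 3 of the 8 members and DESeq2 had 4, beside 10.5%, 11.8% and 7.44% of all genes given a p by limma, edgeR and DESeq2. Since Myo7a was chosen for this value, these counts are printed as a description and nothing is read from them.

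Among all 16391 genes tested by limma, 9 had a log2 difference at or below that of Myo7a, and among the 10051 with a mean of at least 100 normalized counts there were 2, Myo7a included. Leaving out each library in turn kept the limma difference of Myo7a between -3.36, without lv_nc replicate 1, and -2.67, without lv_nc replicate 2. Each of these refits has 1 library in a group, and nothing is read from its adjusted p. The authors' shorter deposited list of 167 genes contained 1 of the 8 members, Myo7a.

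**Figure D2:**
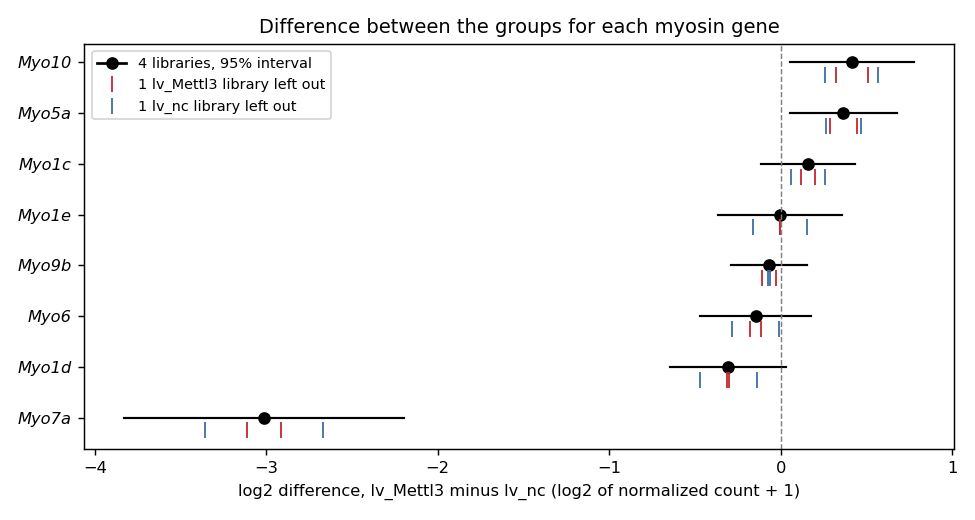
Log2 difference of each myosin, lv_Mettl3 minus lv_nc, from limma on log2(normalized count + 1), with its 95% interval as a bar and ticks for the value with each library left out. Myo7a lies at -3.01, and the other 7 lie between -0.31 and 0.42.

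The protrusion and transport motors Myo10 and Myo5a had the largest differences after Myo7a, in the other direction. Myo10, which gathers at filopodium tips and binds integrins, had 2124 and 2419 normalized counts in lv_Mettl3, against 1892 and 1526 in lv_nc. Its groups did not overlap, and its log2 difference was 0.42 (SE 0.14, 95% interval 0.05 to 0.78). Myo5a, the processive vesicle motor that holds melanosomes at the cell periphery in mouse pigment cells, had 1474 and 1319 in lv_Mettl3, against 1161 and 1007 in lv_nc. Its groups did not overlap either, with a log2 difference of 0.37 (SE 0.12, 95% interval 0.06 to 0.68).

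Class I supplied the most abundant members. Myo1c, which tethers vesicles and plasma membrane to cortical actin and takes part in glucose transporter delivery in adipocytes, had 9991 and 10578 normalized counts in lv_Mettl3, against 9864 and 8575 in lv_nc. The lowest lv_Mettl3 library lay just above the highest lv_nc library, and the log2 difference was 0.16 (SE 0.11, 95% interval -0.11 to 0.43). Myo1d, a short-tailed class I motor that sets left-right asymmetry in Drosophila, had 5580 and 5632 in lv_Mettl3, against 6174 and 7774 in lv_nc. It was lower in both lv_Mettl3 libraries, with a log2 difference of -0.31 (SE 0.13, 95% interval -0.64 to 0.03). Myo1e, a long-tailed class I motor needed by kidney podocytes, had 710 and 712 in lv_Mettl3, against 639 and 795 in lv_nc. Its lv_Mettl3 libraries fell between its lv_nc libraries, and its 95% interval was -0.37 to 0.36.

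Myo6, the motor that walks toward the pointed end of actin filaments and serves endocytosis, had 1040 and 997 normalized counts in lv_Mettl3, against 1026 and 1239 in lv_nc. The groups overlapped, with a log2 difference of -0.15 (SE 0.13, 95% interval -0.47 to 0.18). Myo9b, whose tail inactivates a small GTPase, had 2210 and 2345 in lv_Mettl3, against 2375 and 2395 in lv_nc. The groups stood apart by a small margin, with a log2 difference of -0.07 (SE 0.09, 95% interval -0.29 to 0.16).

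Across the members, 6 of 8 had groups that did not overlap, 3 higher and 3 lower in lv_Mettl3. Over all genes tested, 45% had groups that did not overlap, 23.5% higher and 21.5% lower in lv_Mettl3. Of the 7 members besides Myo7a, 5 had a 95% interval that held 0, and their means in lv_Mettl3 differed from those in lv_nc by -19.6% to 32.9%. The median log2 difference of the 8 members was -0.04, against 0.01 for all genes tested.

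The libraries of lv_nc were the less alike. For 7 of the 8 members, lv_nc had the larger replicate ratio. For 8 of 8, lv_nc replicate 1 lay nearer to the lv_Mettl3 mean than lv_nc replicate 2 did. Of these, 2 were near ties. The lv_Mettl3 mean minus lv_nc replicates 1 and 2 was 0.154 and -0.160 for Myo1e on the log2 scale. For Myo9b it was -0.061 and -0.073. The wider spread was not particular to myosins: over 10051 genes, replicate differences had an SD of 0.413 for lv_nc, against 0.288 for lv_Mettl3. The 2 counts were not made over all genes. Without lv_nc replicate 1, Myo10 had a log2 difference of 0.57 with a limma adjusted p of 0.0439 and a DESeq2 adjusted p of 0.00209, and Myo1d one of -0.47 with adjusted p-values of 0.0267 and 9.63e-05. That setting compares both lv_Mettl3 libraries with lv_nc replicate 2 alone, and it called 8.92% of all genes with limma and 12.7% with DESeq2. Without lv_nc replicate 2 the same differences were 0.26 for Myo10 and -0.14 for Myo1d, and DESeq2 called 1.61% of genes.

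Levels could be compared between genes after division by the deposited gene length. Among the 19 unconventional myosins of the table, Myo1c led with a mean of 2574 normalized counts per kilobase over the 4 libraries, and Myo1d followed with 1192. Myo9b had 322, Myo10 289, Myo1e 238, Myo5a 212, Myo6 138 and Myo7a 19.5 counts per kilobase. The ranges of Myo1c and Myo1d did not meet, nor did those of Myo1d and Myo9b, of Myo5a and Myo6, or of Myo6 and Myo7a. Neighbours between these gaps overlapped: Myo9b with Myo10, Myo10 with Myo1e, and Myo1e with Myo5a. Myo9b, at 305 to 330 counts per kilobase, lay above all libraries of Myo1e, at 213 to 265, and of Myo5a, at 172 to 252. Myo7a stood last of the 8 members in both groups.

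Myo7a had 4.36 and 3.80 counts per kilobase in lv_Mettl3 and 26.7 and 43.0 in lv_nc. The summed level of all 19 unconventional myosins was 5594 and 5802 counts per kilobase in lv_Mettl3 and 5631 and 5616 in lv_nc. Of that sum Myo7a made up 0.0780% and 0.0654% in lv_Mettl3 and 0.474% and 0.766% in lv_nc. Myo1c and Myo1d together made up 66.0% and 66.5% in lv_Mettl3 and 67.0% and 66.5% in lv_nc. Their split differed by library, with Myo1c at 47.1% and 48.1% in lv_Mettl3 and 46.2% and 40.3% in lv_nc, and Myo1d at 18.9% and 18.4% in lv_Mettl3 and 20.8% and 26.2% in lv_nc.

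**Figure D3:**
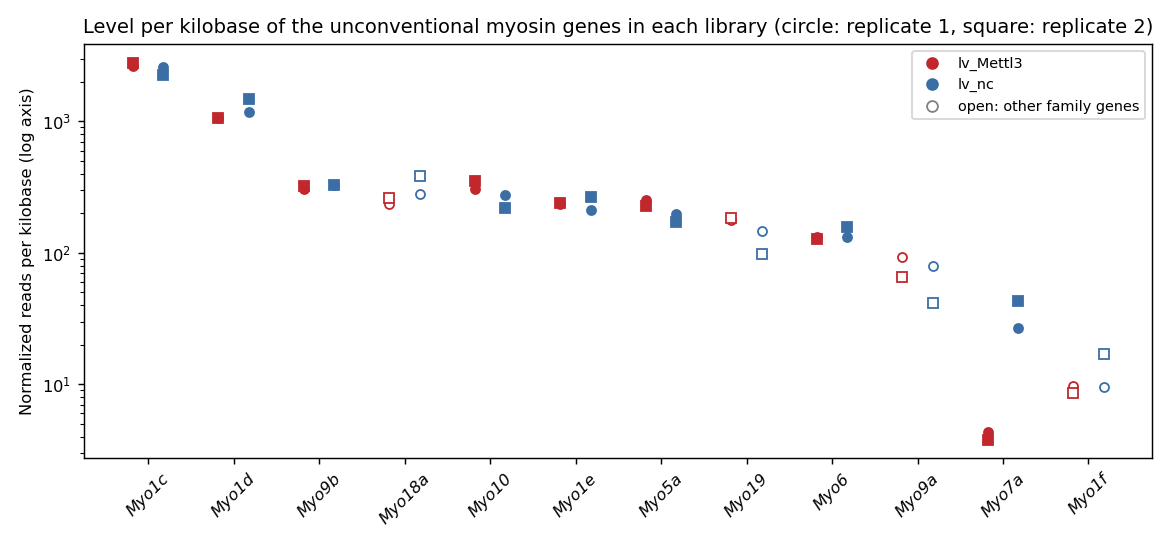
Normalized read count per kilobase of deposited gene length for unconventional myosins of the table, on a log axis; filled symbols are the 8 members, open symbols other genes of the family with a mean of at least 1, circles replicate 1 and squares replicate 2. Myo1c (2574 on average) and Myo1d (1192) lead, and Myo7a has the widest gap between its lv_Mettl3 libraries (4.36 and 3.80) and its lv_nc libraries (26.7 and 43.0).

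The other unconventional myosins were searched with a list of 16 symbols, of which 11 were found, and 5 of those averaged under 5 normalized counts. DESeq2, limma and edgeR called 0 of the 11, beside the 2.52%, 0.0183% and 0.0381% of all genes called, and at an unadjusted p under 0.05 there were 2 with limma and 2 with DESeq2, beside the 10.5% and 7.44% of all genes given above. DESeq2 gave 5 of the 11 an adjusted p. The median log2 difference of the list was 0.44, drawn in part from the genes of few counts, and it ranged from -0.18 to 0.69 when each library was left out in turn. Myo18a, which binds the Golgi, averaged 1771 ± 116 in lv_Mettl3 and 2371 ± 523 in lv_nc (SD, n = 2 each). Myo19, the mitochondrial myosin, averaged 733 ± 23.0 in lv_Mettl3 and 494 ± 143 in lv_nc, with a log2 difference of 0.60. Myo9a, the closest relative of Myo9b, averaged 665 ± 169 in lv_Mettl3 and 509 ± 223 in lv_nc. Without lv_nc replicate 1, DESeq2 called 3 of the 11, 2 higher and 1 lower in lv_Mettl3, beside 12.7% of all genes.

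Of 14 myosin II heavy chain symbols, 8 were found, with a median log2 difference of -0.20, and DESeq2, limma and edgeR called 0; at an unadjusted p under 0.05 there were 0 with limma and 1 with DESeq2, and DESeq2 gave 5 of the 8 an adjusted p. Myh10, the heavy chain of nonmuscle myosin IIB, averaged 4464 ± 6.13 in lv_Mettl3 and 4821 ± 216 in lv_nc. Myh14, of nonmuscle myosin IIC, averaged 842 ± 37.3 in lv_Mettl3 and 1226 ± 543 in lv_nc, and the smooth muscle chain Myh11 averaged 122 ± 7.41 in lv_Mettl3 and 124 ± 34.0 in lv_nc. Myh9, of nonmuscle myosin IIA, averaged 70.5 ± 17.2 in lv_Mettl3 and 65.7 ± 8.0 in lv_nc, but the table also lists Myh9l1, annotated as a Myh9-like gene and named here after its values were seen, with 2997 ± 1478 in lv_Mettl3 and 3107 ± 1071 in lv_nc. The counting may have split reads between these copies, so the level of Myh9 is uncertain.

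The light chains and calmodulins that myosin necks bind were 11 of 16 found, with 0 called by DESeq2, limma or edgeR. Their median log2 difference was 0.0050, against 0.0051 for all genes. At an unadjusted p under 0.05 there were 0 with limma and 1 with DESeq2, and DESeq2 gave 9 of the 11 an adjusted p. Myl12a, a regulatory light chain of nonmuscle myosin II, averaged 12096 ± 725 in lv_Mettl3 and 10312 ± 1613 in lv_nc. The cargo adaptors and Rab partners of class V, VI and VII motors were 23 of 26 found, with 0 called by DESeq2, limma or edgeR. There was 1 at an unadjusted p under 0.05 with DESeq2 and with limma, and the median of the list was 0.0048. Their most abundant members were Tax1bp1, an autophagy adaptor bound by Myo6, at 3874 ± 331 in lv_Mettl3 and 3741 ± 38.8 in lv_nc, and the membrane traffic GTPase Rab10, at 3766 ± 11.3 in lv_Mettl3 and 3758 ± 135 in lv_nc. Rilpl2, which binds the tail of Myo5a and is named here after its values were seen, had a log2 difference of -0.68 with a DESeq2 adjusted p of 0.0697.

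Proteins that work beside Myo7a in stereocilia, and their counterparts that link microvilli, were 9 of 15 found, and 4 of these averaged under 5 normalized counts. Limma tested 7 of them, 6 with a log2 difference below 0, and the median was -0.16, but DESeq2, limma and edgeR called 0, and 0 had an unadjusted p under 0.05 with limma or DESeq2; DESeq2 gave 5 of the 9 an adjusted p. Cib2, a partner of the hair cell transduction channel, averaged 185 ± 4.84 in lv_Mettl3 and 216 ± 88.7 in lv_nc. The tip link cadherin Pcdh15 averaged 73.8 ± 2.08 in lv_Mettl3 and 81.5 ± 8.82 in lv_nc.

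All 22 actin bundlers and capping proteins of microvilli, stereocilia and filopodia were found, but 5 averaged under 5 normalized counts. Genes this low are part of the counts of direction given below. DESeq2, limma and edgeR called 0 of the 22. At an unadjusted p under 0.05 there were 2 with limma and 1 with DESeq2, beside 10.5% and 7.44% of all genes. DESeq2 gave 16 an adjusted p. Of those tested by limma, 17 of 21 had a log2 difference above 0, with a median of 0.22 and 10 higher and 1 lower in lv_Mettl3 without overlap, beside 23.5% higher and 21.5% lower over all genes. The crosslinker Actn4 averaged 17265 ± 722 in lv_Mettl3 and 15210 ± 1765 in lv_nc, and Msn, which links actin to the membrane, averaged 13868 ± 600 in lv_Mettl3 and 11854 ± 289 in lv_nc. Without lv_nc replicate 1, DESeq2 called 2 of the 22 higher in lv_Mettl3, beside 12.7% of all genes.

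Among the regulators of myosin and their small GTPases, 21 of 22 were found, and 1 was called by DESeq2, beside 2.52% of all genes. Mylk, the kinase that phosphorylates the regulatory light chain of myosin II, had 345 and 407 normalized counts in lv_Mettl3, against 113 and 115 in lv_nc. Both lv_Mettl3 libraries lay well above both lv_nc libraries, with means of 376 ± 44.3 in lv_Mettl3 and 114 ± 1.46 in lv_nc (SD, n = 2 each). Mylk rose by 1.72 on the log2 scale with DESeq2 (SE 0.27, adjusted p 1.41e-07), and its limma difference of 1.70 (SE 0.17) had an adjusted p of 0.165. Without lv_Mettl3 replicate 2, where 0.452% of genes were called, the DESeq2 difference was 1.59 with an adjusted p of 0.142. The adjusted p was 0.0223 without lv_Mettl3 replicate 1, where 0.415% of genes were called, 1.39e-05 without lv_nc replicate 1 and 4.54e-05 without lv_nc replicate 2. The median of the list was 0.02.

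**Figure D4:**
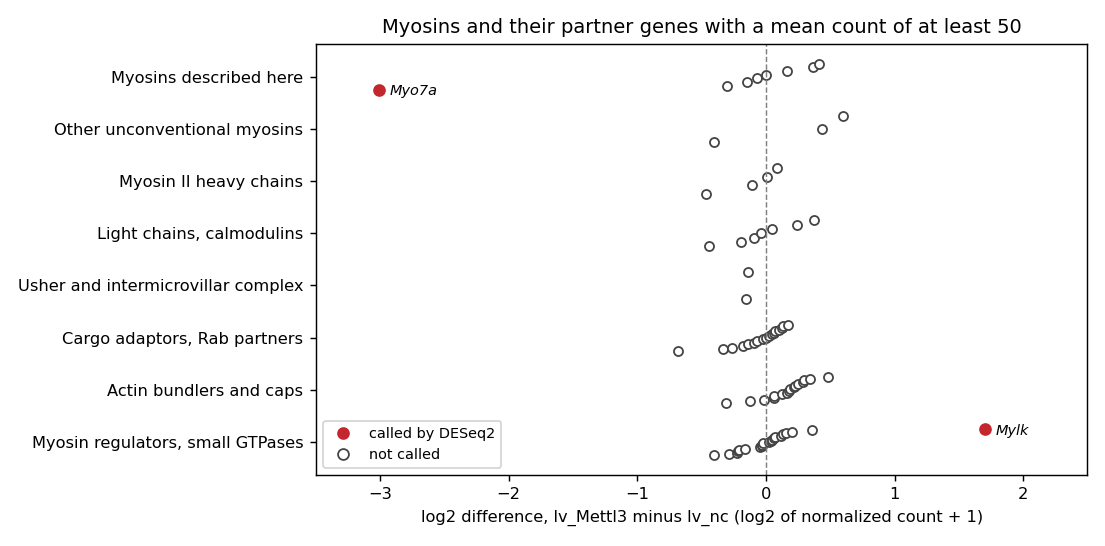
Log2 difference, lv_Mettl3 minus lv_nc, of the 8 members and of the genes in the lists of other myosins and myosin partners that averaged at least 50 normalized counts; each point is 1 gene, filled where DESeq2 called it. The filled points are Myo7a at -3.01 and Mylk at 1.70, and the open points lie between -0.68 and 0.60.

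Genes whose profile over the 4 libraries was nearest to that of Myo7a were ranked among 9839 genes with a mean of at least 50, by the root mean square distance of centred log2 values, which is a description over 4 libraries. Col1a1, a chain of type I collagen, was nearest at a distance of 0.26, with 1033 and 876 normalized counts in lv_Mettl3, against 3914 and 8706 in lv_nc. Col1a2, the other type I chain, followed at 0.43, with 28.6 and 16.5 in lv_Mettl3, against 86.0 and 135 in lv_nc. Col3a1, of type III collagen, was at 0.46, with 1386 and 1017 in lv_Mettl3, against 4115 and 6315 in lv_nc. Each of these 3 collagen genes was lower in lv_Mettl3 and was highest in lv_nc replicate 2, like Myo7a, a likeness for which they were picked. The next were the scavenger receptor family gene Ssc5d at 0.48, with 27.6 and 16.5 in lv_Mettl3, against 66.4 and 192 in lv_nc, and the hydrogen peroxide-generating oxidase Duox2 at 0.53, with 15.9 and 36.2 in lv_Mettl3, against 122 and 315 in lv_nc.

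**Figure D5:**
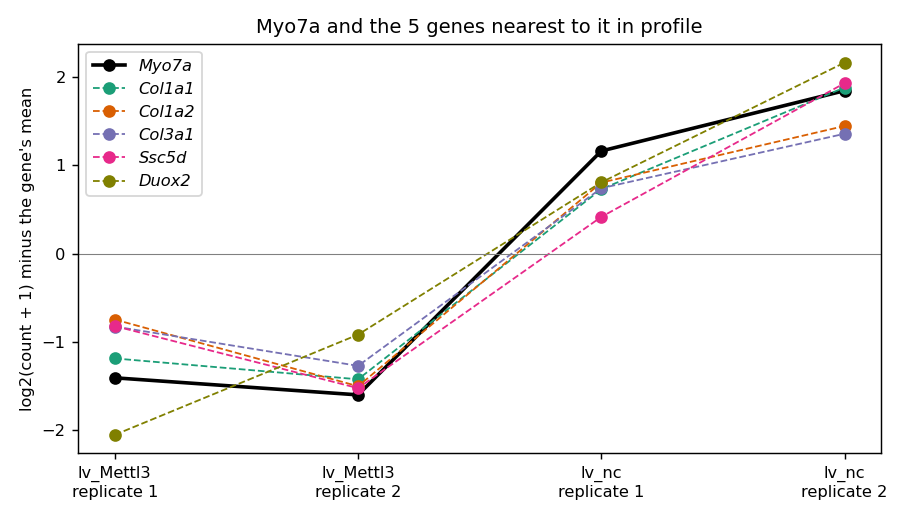
Centred log2(normalized count + 1) of Myo7a and of the 5 genes with the nearest profile, by library, with the lv_Mettl3 libraries left of the lv_nc libraries. All 6 genes are lower in both lv_Mettl3 libraries, and lv_nc replicate 2 is highest for each, a likeness for which the 5 were picked.

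The 3 collagen genes also belong to the fibroblast and smooth muscle list, so their part in it is not independent of their likeness to Myo7a. Of the 12 symbols of the list 8 were found. Limma and edgeR called 0 of the list, beside 0.0183% and 0.0381% of all genes. DESeq2 called 4 of the 7 it tested, all lower in lv_Mettl3, beside 1.07% of all genes: Col1a1, Col1a2, Col3a1 and the smooth muscle actin Acta2. Acta2 had 542 and 488 normalized counts in lv_Mettl3, against 1531 and 748 in lv_nc, and was thus highest in lv_nc replicate 1, unlike Myo7a. The summed level of the list, most of it in lv_nc from Col1a1 and Col3a1, was 5399 and 4891 normalized counts in lv_Mettl3 and 13680 and 17854 in lv_nc, while the fibroblast receptor Pdgfra had at most 3.10 in any library and the smooth muscle markers Tagln, Des and Cnn1 overlapped between the groups. The number of genes of the list called was 1 without lv_Mettl3 replicate 1, beside 0.415% of all genes, and 1 without lv_Mettl3 replicate 2, beside 0.452%. It was 3 without lv_nc replicate 1, beside 12.7%, and 4 without lv_nc replicate 2, beside 1.61%. Whether these markers bear on the Myo7a difference was not tested.

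Hair cells are the cells best known for Myo7a, and their markers were near 0. Of 13 hair cell, sensory and pigment cell markers 5 were found, and the hair cell genes Pou4f3, Gfi1 and Otof had at most 3.69 normalized counts in any library. The list summed to 356 and 365 in lv_Mettl3 and 321 and 555 in lv_nc, nearly all of it from the pigment cell genes Pmel and Mitf, which differed in opposite directions between the group means. Pmel had 224 and 247 in lv_Mettl3, against 277 and 492 in lv_nc, and Mitf had 129 and 114 in lv_Mettl3, against 44.0 and 59.1 in lv_nc. DESeq2 called 0 of the 2 genes of the list it tested. Leukocyte and endothelial markers, 6 of 12 found, summed to 43.5 and 96.1 in lv_Mettl3 and 58.6 and 71.1 in lv_nc. DESeq2 gave only 1 of these 6 an adjusted p, so no count of calls is read from them. Of the 12 proximal tubule markers tested by limma, 5 had a log2 difference above 0 and 7 below, with a median of -0.095. Limma and edgeR called 0 of the list, beside 0.0183% and 0.0381% of all genes. DESeq2 called 1 of the 7 it tested, beside 2.52% of all genes. This was Ggt1, whose adjusted p was 0.378 with limma and 0.243 with edgeR. With DESeq2 it rose by 0.51 on the log2 scale with an adjusted p of 0.0345. Its difference was 0.60 without lv_Mettl3 replicate 1 and 0.41 without lv_Mettl3 replicate 2, each with an adjusted p of 1.00, and its adjusted p was 0.00434 without lv_nc replicate 1 and 0.00572 without lv_nc replicate 2.

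The genes on either side of Myo7a on chromosome 1 had smaller differences. Capn5, a calpain gene 1.62 kb away, had 1034 and 1214 normalized counts in lv_Mettl3, against 1140 and 1684 in lv_nc, so the groups overlapped. The kinase gene Pak1, 119 kb away, had 4097 and 4074 in lv_Mettl3, against 4716 and 4768 in lv_nc, a log2 difference of -0.22. Acer3, an alkaline ceramidase gene 89.5 kb away, had 1583 and 1719 in lv_Mettl3, against 1373 and 1300 in lv_nc, a log2 difference of 0.30. At an unadjusted p under 0.05 limma had 2, Pak1 and Acer3, beside 10.5% of all genes. Limma, DESeq2 and edgeR called 0 of the 5 genes listed within 250 kb, beside 0.0183%, 2.52% and 0.0381% of all genes. These 5 also include B3gnt6 and Tsku and were chosen after their values were seen. DESeq2 and edgeR gave no adjusted p to B3gnt6, which had a mean of 0.992.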

How the data were processed

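RNA from 4 NRK-52E libraries was sequenced, and the titles gave each library its group and number. CASAVA 1.4 and HISAT2 are named, per the submitters' processing notes; the sources used here do not give the counter, build, annotation or strandedness. The labels name polyA RNA, and the series text describes removal of ribosomal RNA. The authors deposited a signal per gene and library, gene read counts divided by 1 size factor per library: 100% of values were whole multiples of 1 step within a tolerance of 0.001 reads, and size factors were 0.943 and 0.968 in lv_Mettl3 and 1.02 and 1.08 in lv_nc. A log2 fold change and a p-value per gene were also deposited by the authors, along with gene lengths.

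The main test was limma 3.58.1 with a trend on log2(value + 1), which understates the change of low genes, for genes that reached 1 in 2 or more libraries; p-values were adjusted by Benjamini-Hochberg over all of them. DESeq2 1.42.0 and edgeR 4.0.16 on the recovered whole reads were alternatives, which called 318 and 5 genes. The scripts were tested on simulated data with independent libraries and the same dispersion of a gene in both groups. That test therefore does not cover the wider spread of lv_nc, and nothing is read from it here. R was 4.3.3 and Python 3.11.15. The members and gene lists were chosen with earlier results of these data known. Named genes were Mettl3, the members, up to 4 called genes of each list or otherwise its 2 most abundant, every myosin heavy chain gene with a mean of at least 50, and the 5 profiles nearest to Myo7a. Pdzk1, Slc4a4, Lrp2, Aqp1, Pdgfra, Tagln, Des, Cnn1, Pou4f3, Gfi1, Otof, Pmel and Mitf, from the marker lists, were named after their values were seen. Withheld genes that this rule picked are not reported or plotted here. Other alternatives changed the pseudocount, filter, scaling, replicate block, empirical Bayes setting and libraries used.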

Additional observations from a re-analysis of the deposited data

How the results depend on the processing

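The table-wide count of called genes depended strongly on the setting. Limma called 3 genes, 0 with a pseudocount of 0.1, 5 with at least 1 CPM in all 4 libraries and 24 with robust empirical Bayes, against 318 with DESeq2 and 5 with edgeR. With each library left out limma called 28 to 1431 genes, the highest without lv_nc replicate 1. DESeq2 refits chosen after seeing the data called 56 without lv_Mettl3 replicate 1, 61 without lv_Mettl3 replicate 2, 1547 without lv_nc replicate 1 and 217 without lv_nc replicate 2. With a library left out, the Myo7a difference lay between -3.36 and -2.67 with limma and between -3.40 and -2.72 with DESeq2, the larger without lv_nc replicate 1 and the smaller without lv_nc replicate 2 with either tool. Its adjusted p passed 0.05 in all 5 DESeq2 fits, in limma with robust empirical Bayes (0.0455) and in limma without lv_Mettl3 replicate 1, lv_Mettl3 replicate 2 or lv_nc replicate 1; in the other limma settings and in edgeR it lay between 0.0656 and 0.236.

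With a replicate block the Myo7a difference was -3.01 and 3 genes were called. Deviations of same-numbered libraries correlated at r = 0.325 over 10051 genes. The labels do not say whether same-numbered libraries share more than a number, and with 2 pairs this was not tested. Of 126 recomputed values of the other members 3 moved by more than 1 replicate SD, and of 198 recomputed list medians 63 did; the cause was not tested. Without lv_nc replicate 1, DESeq2 also called 1 myosin II heavy chain lower in lv_Mettl3, and 1 gene higher and 1 lower in the light chain list and in the cargo adaptor list, beside 12.7% of all genes. At 25 to 28 reads, Myo7a in lv_Mettl3 is limited by counting error.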
